A study of Mus musculus with 2 samples.

Results

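The genes of TGF beta, BMP and activin signalling were compared between the fat of C57BL/6 mice on ordinary chow and on a high fat diet. The 40 genes were chosen by name as ligands, latency proteins, receptors, Smads and secreted antagonists of the pathway, and their rule uses no measured value, out of 18193 genes that the arrays could name. A probe set, a group of short probes for 1 transcript, was assigned to a gene when that gene was its only annotated symbol. By this rule 38 genes had 91 probe sets, and Bmp3 and Gdf15 were not analysed here. One group received the chow CE-2 as the control and the other the diet HFD32, given to induce obesity, both starting at 6 weeks of age and ending at 18 weeks. C57BL/6 is an inbred laboratory strain. A single Affymetrix array was run per diet, each with the pooled RNA of 3 animals, and these are called the CE-2 array and the HFD32 array. The mice are described as healthy, no genetic change is listed for either group, and neither the fat depot nor the sex of the animals is stated in the labels.

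TGF beta, activins, BMPs and GDFs are secreted dimers of one protein superfamily. They bind a type II receptor kinase, which activates a type I receptor kinase, and this in turn phosphorylates receptor Smads. TGF beta and activin act mainly through Smad2 and Smad3, and BMPs through Smad1 and Smad5. Smad4 is the common partner that enters the nucleus with them, while Smad6 and Smad7 block the signal. TGF beta is stored in the matrix in a latent form, bound to latency proteins, and antagonists such as follistatin, noggin and chordin-like proteins trap activins or BMPs outside the cell. In fat, TGF beta is known to promote fibrosis and to hold back fat cell formation, BMP4 to commit precursor cells to the fat lineage, and the receptor ALK7 (Acvr1c) to restrain the breakdown of stored fat.

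All values are log2 signals, and a difference is the high fat diet value minus the normal diet value, so that 1 is a ratio of 2. With 1 array per diet there was no replicate check, the diets could not be tested against each other, and every ratio compares 2 pools. Error could be read solely from genes with several probe sets, 5131 in all, whose differences had an SD of 0.27 within a gene (log2 scale). It covers the probes and not the animals. A gene was counted when the mean of both arrays on its brightest probe set was at least 5.44, the median of all probe sets (the floor), which 11778 genes and 35 of the 38 pathway genes reached. Levels of different genes are not compared, since each probe set has its own brightness per transcript.

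The labelled tissue was checked against its markers. All 5 measured adipocyte markers were far above background, and Adipoq, the adipocyte hormone adiponectin, had 14.21 on the CE-2 array and 14.12 on the HFD32 array. Their differences went both ways, from -0.19 for Lipe to 1.08 for Lep, with a median of -0.03, and the 4 probe sets of Fabp4 ran from -1.52 to -0.03. Both arrays also held transcripts of other tissues. The log2 of the summed signal of 7 hepatocyte genes was 14.61 on the CE-2 array and 8.90 on the HFD32 array. For 3 pancreas genes it was 10.38 and 5.98, for 4 skeletal muscle genes 11.61 and 10.47, and for 4 epididymis genes 6.60 and 11.01. Among the cell types of fat itself, all 6 macrophage markers stood higher on the HFD32 array (summed 12.70 and 13.77), though Cd163 by only 0.04. Endothelial markers were lower in 5 of 5 on their brightest probe sets (10.96 and 10.35), but those of Cdh5 ran from -0.39 to 0.53. Smooth muscle and pericyte markers were lower in 6 of 6 (13.89 and 12.77), as were mesothelium markers (11.54 and 10.50). Fibroblast and progenitor markers were lower in 5 of 7 (13.41 and 13.40). On the HFD32 array Fga and Cps1 of the hepatocyte list and all 3 pancreas genes lay under background, and Lcn8, Adam7 and Cst12 of the epididymis list did so on the CE-2 array. The part of these shifts in any result that follows was not tested. In such bulk RNA, fewer cells of a type and less RNA per cell cannot be told apart.

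Of the 35 pathway genes above the floor, 14 were higher and 21 lower on the HFD32 array, where 49.9% of all genes were higher and 49.3% lower. Their median difference was -0.14, against 0 over all genes. At 1.5-fold, a difference of 0.58, 3 genes (8.57%) were higher, namely Ltbp2, Tgfb1 and Smad6, beside 8.20% of all genes. At the same ratio 4 genes (11.4%) were lower, namely Gdf10, Chrdl1, Tgfb3 and Tgfb2, beside 8.52% of all genes. At 2-fold only Ltbp2 was higher and only Gdf10 was lower, each 2.86% of the pathway genes, beside 3.28% and 3.29% of all genes. The shares past these ratios lie near the background, so the pathway did not stand out by them. The median size of its differences, sign aside, was 0.34, against 0.23 over all genes, which was not tested. What follows describes its members by role.

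**Figure D1:**
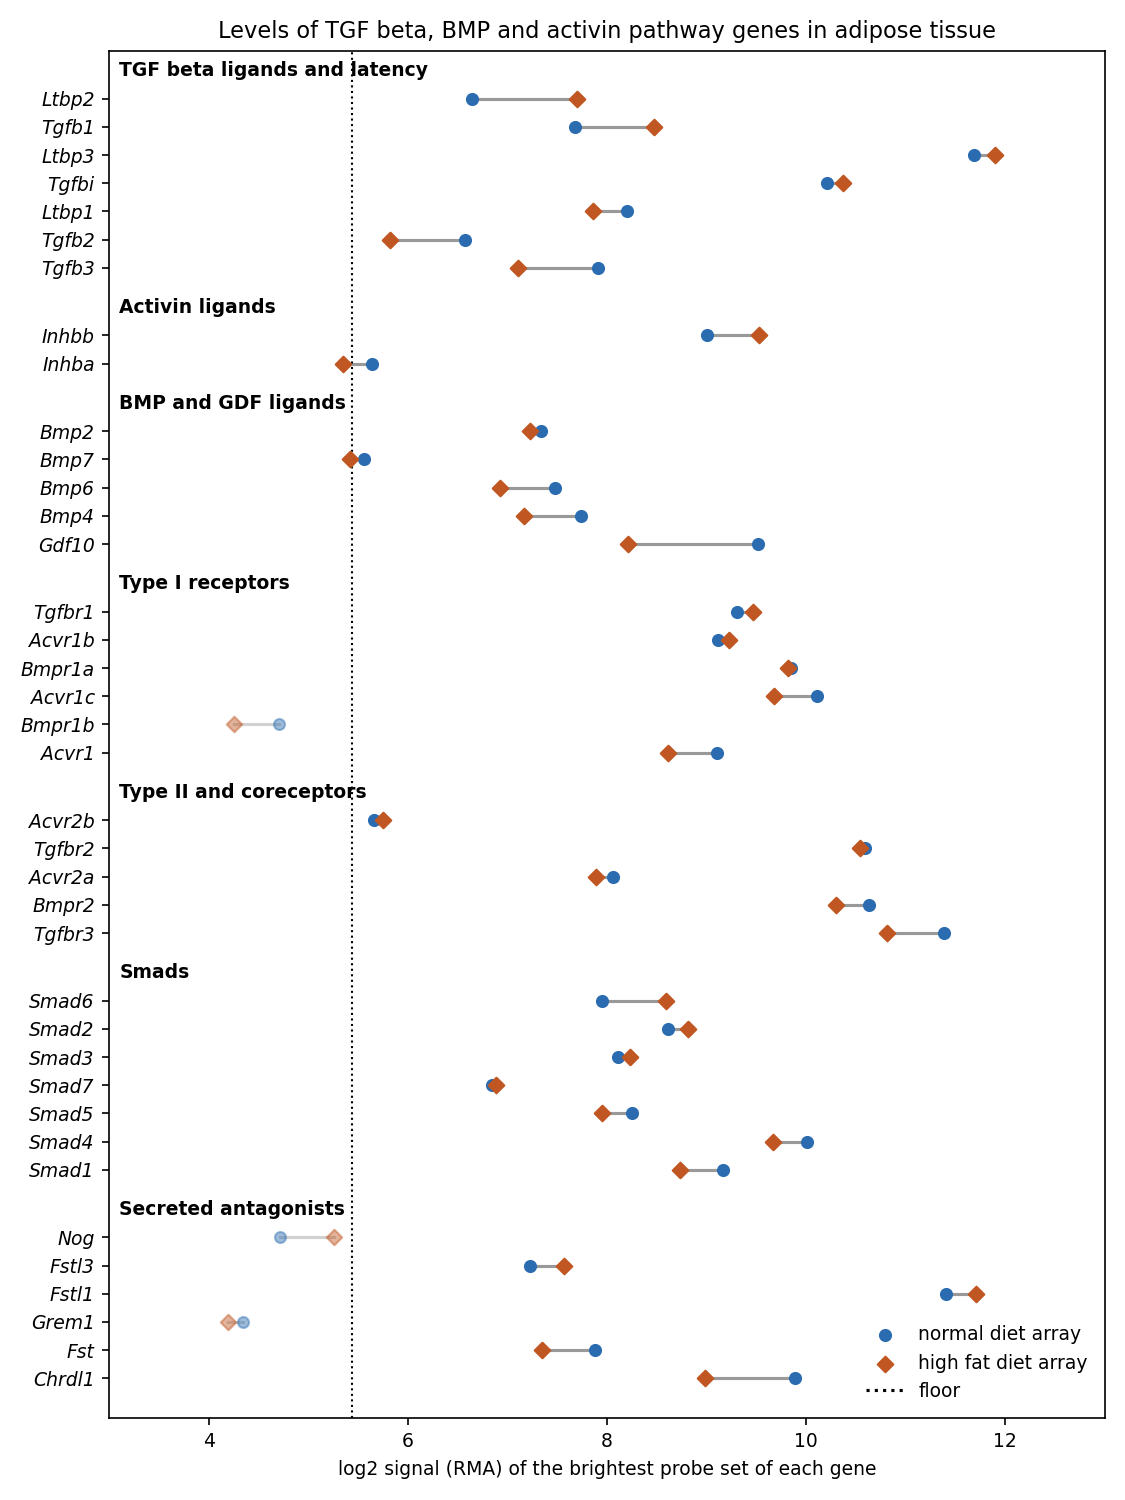
Level of each measured pathway gene on the CE-2 array (normal diet, circles) and the HFD32 array (high fat diet, diamonds), as log2 signal of its brightest probe set, grouped by role and ordered by difference. The dotted line is the floor of 5.44 and pale symbols are the 3 genes whose mean lies below it. The longest lines belong to Gdf10 (9.52 and 8.21), Ltbp2 (6.65 and 7.70) and Chrdl1 (9.89 and 8.98).

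The 3 TGF beta ligands did not go the same way. Tgfb1, the main TGF beta of immune cells and of tissue fibrosis, had 7.68 on the CE-2 array and 8.48 on the HFD32 array (probe set 1420653_at). This is a difference of 0.79, 1.73-fold higher, and 5.00% of all genes above the floor had a larger one. A dimmer probe set of Tgfb1, whose mean lay below the floor, had 5.06 and 5.28. With the median over both probe sets the difference of Tgfb1 is 0.51, short of 1.5-fold, and 2 instead of 3 pathway genes are then higher by that ratio. Tgfb3, a ligand linked to tissue remodelling, had 7.91 and 7.10 (1417455_at), a difference of -0.80 and 1.75-fold lower on the HFD32 array. Tgfb2, the third isoform, had 6.58 and 5.82 (1423250_a_at), a difference of -0.75 and 1.68-fold lower. Its other probe sets all had means below the floor. A pair of them had 5.59 and 4.57, and 5.38 and 4.40, lower and under background on the HFD32 array, and the last lay under background on both arrays. Background is the 95th percentile of 83 probe sets of sensory receptor genes, 4.92 on the CE-2 array and 4.95 on the HFD32 array. Beside these ligands, macrophage markers had a median difference of 1.55, smooth muscle and pericyte markers -1.40 and mesothelium markers -1.25. Endothelial markers had -0.64, fibroblast and progenitor markers -0.30 and adipocyte markers -0.03, and a link of the ligands to any cell type was not tested.

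The latency proteins, which tether TGF beta to matrix fibrils, also went both ways. Ltbp2 is a matrix protein of this family that is not known to bind TGF beta itself, and it had the largest positive difference among the 35 genes. Its single probe set (1418061_at) had 6.65 on the CE-2 array and 7.70 on the HFD32 array, a difference of 1.05 and 2.08-fold higher, and 2.84% of all genes had a larger one. Ltbp1, the classical carrier of latent TGF beta, had 8.21 and 7.85, a difference of -0.35, and its other probe sets lay under background on both arrays. Ltbp3, a further carrier, had 11.69 and 11.90, and its 3 probe sets above the floor had differences from 0.21 to 0.33. A further probe set of Ltbp3 had 4.94 and 4.11, at background and under it, and gives no direction. Tgfbi, a matrix protein named for its induction by TGF beta, had 10.21 and 10.37, and its 4 probe sets had differences between 0.07 and 0.20. The differences of Ltbp3 and Tgfbi on their brightest probe sets, 0.21 and 0.16, are smaller than the SD between probe sets.

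Of the activin subunits, Inhbb was higher and Inhba was not. Inhbb encodes the subunit of activin B, a ligand of ALK7 that fat cells make. It had 9.01 on the CE-2 array and 9.53 on the HFD32 array (1426858_at), a difference of 0.52, and its other probe set had 6.83 and 7.44, a difference of 0.60. Both of its probe sets were thus higher, at 1.43-fold on the brighter one. Inhba, the subunit of activin A, had 5.64 and 5.35, a difference of -0.30 close to the floor, and its second probe set lay under background on both arrays. On the HFD32 array Inhba lay under the floor, so it was counted only through the array where it is higher.

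All 5 measured BMP and GDF ligands were lower on the HFD32 array, with a median difference of -0.56 against 0 over all genes, while 49.3% of all genes were lower. The count includes Bmp2 and Bmp7, whose differences are within the SD between probe sets. Gdf10, also called BMP3b, a ligand known from fat and bone, had the largest negative difference among the 35 genes on their brightest probe sets. It had 9.52 on the CE-2 array and 8.21 on the HFD32 array (1424007_at), a difference of -1.31 and 2.48-fold lower, and 2.12% of all genes lay lower still. Bmp4, the ligand that commits precursors to the fat lineage, had 7.74 and 7.16, a difference of -0.58 and 1.49-fold lower, just short of 1.5-fold. Bmp6, a ligand best known for its control of iron through hepcidin, had 7.48 and 6.92, a difference of -0.56 and 1.47-fold lower. Bmp2, an inducer of bone and of fat cell differentiation, had 7.34 and 7.22, and its difference of -0.12 is within the SD between probe sets. Bmp7, known for inducing brown fat, had 5.56 and 5.42 near the floor, a difference of -0.14, and its other probe sets lay under background on both arrays. On the HFD32 array it lay under the floor, so Bmp7 was counted only through the array where it is higher. Of these ligands only Bmp7 had more than 1 probe set, so the differences of Gdf10, Bmp4 and Bmp6 have no second probe set to set beside them. The same array was lower in mesothelium, smooth muscle and endothelial markers, with median differences of -1.25, -1.40 and -0.64, and in hepatocyte markers, with -5.64. Fibroblast and progenitor markers had -0.30, adipocyte markers -0.03, macrophage markers 1.55 and epididymis markers 4.39, and a link of the ligands to any of these was not tested.

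**Figure D2:**
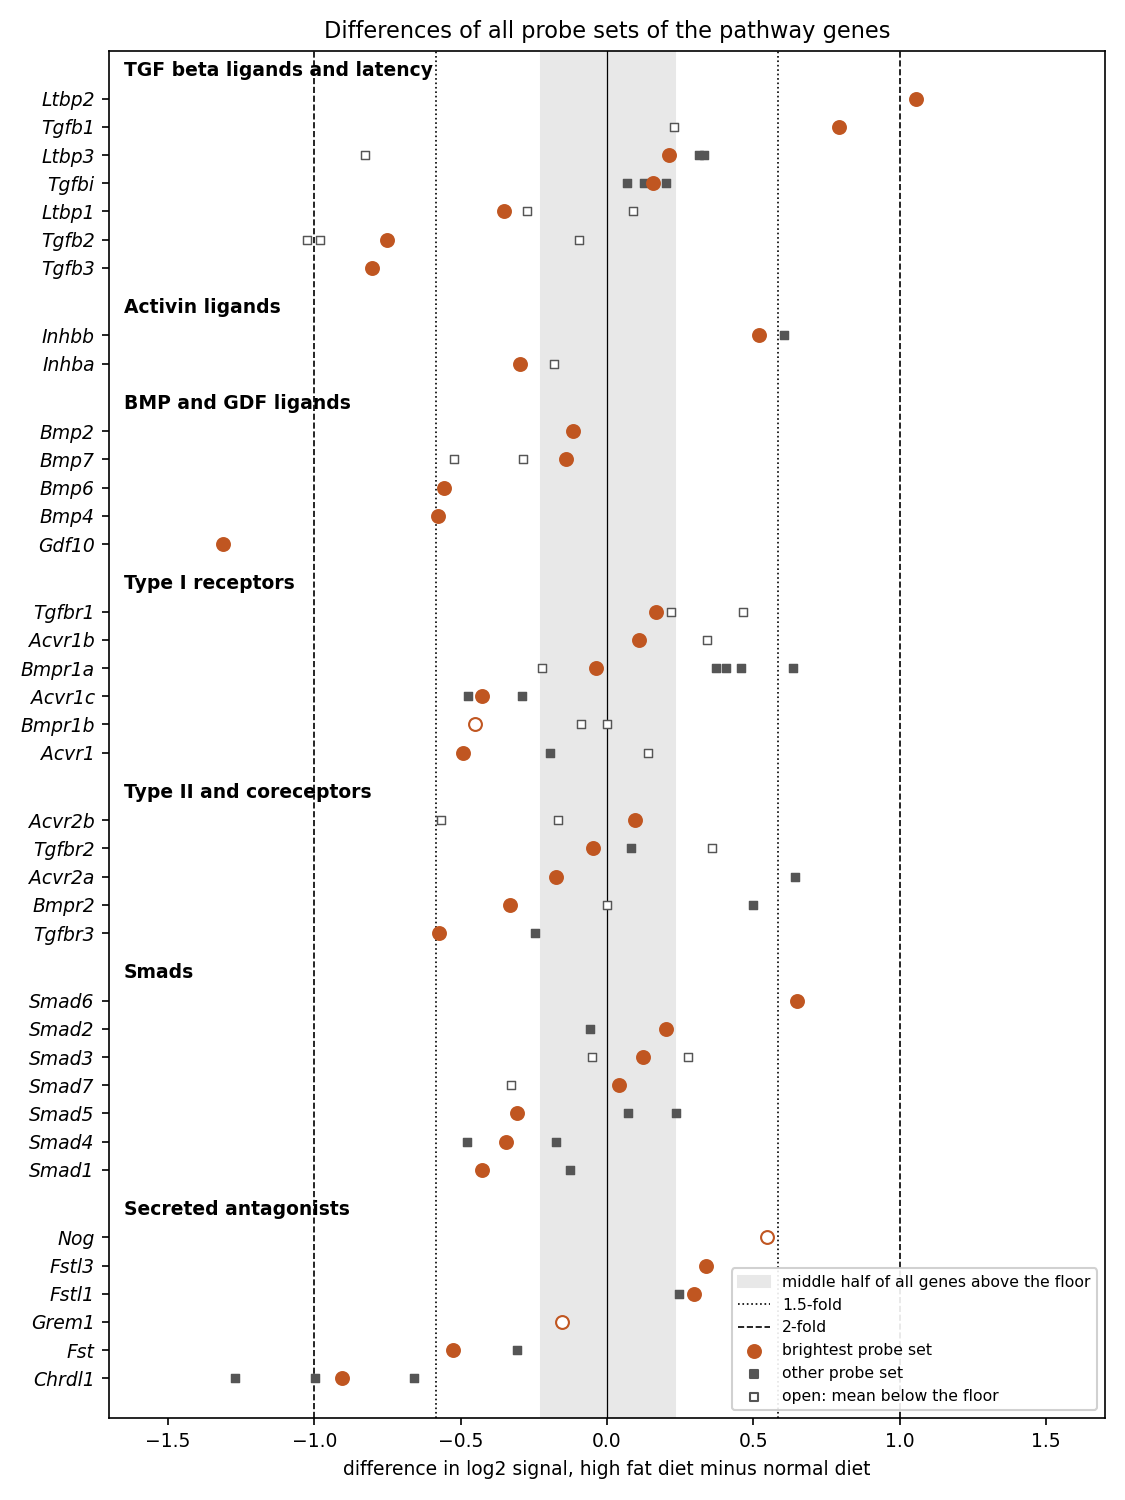
Difference in log2 signal, high fat diet minus normal diet, of every probe set of the pathway genes. Circles are the brightest probe set of a gene, squares its other probe sets, and open symbols have a mean below the floor. The grey band is the middle 50% of all genes, from -0.23 to 0.23, and dotted and dashed lines mark 1.5-fold and 2-fold. All 4 probe sets of Chrdl1 lie to the left of -0.65, while those of Bmpr1a, Acvr2a and Bmpr2 lie on both sides of 0.

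Promoter sequences are shown for the genes past 1.5-fold that the RefSeq promoter table holds, so that the ligand and Smad6 results can be read beside their upstream DNA. The table gave 37 windows for 29 of the 40 genes. Each sequence is the 250 bases before the transcript start, 5′ to 3′ on the gene's strand, in GRCm38.p6. Capitals mark CAGAC or its reverse complement GTCTG, the short box that Smad3 and Smad4 can bind. The windows are chr7:25686752-25687001 on the plus strand for Tgfb1, chr12:84876492-84876741 on the minus strand for Ltbp2, chr9:64022060-64022309 on the minus strand for Smad6, chr1:186705990-186706239 on the minus strand for Tgfb2 and chr14:33923337-33923586 on the plus strand for Gdf10. The first 3 belong to genes that were higher on the HFD32 array and the last 2 to genes that were lower.
Tgfb1: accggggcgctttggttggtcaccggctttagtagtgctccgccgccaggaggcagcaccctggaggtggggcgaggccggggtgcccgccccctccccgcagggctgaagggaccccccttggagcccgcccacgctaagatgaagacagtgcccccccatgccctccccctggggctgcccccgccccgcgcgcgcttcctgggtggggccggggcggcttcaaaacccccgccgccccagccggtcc
Ltbp2: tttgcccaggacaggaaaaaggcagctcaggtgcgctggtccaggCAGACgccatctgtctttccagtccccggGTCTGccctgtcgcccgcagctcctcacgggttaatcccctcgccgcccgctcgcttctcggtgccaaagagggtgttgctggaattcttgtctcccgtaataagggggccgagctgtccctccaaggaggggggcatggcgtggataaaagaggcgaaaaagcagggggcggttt
Smad6: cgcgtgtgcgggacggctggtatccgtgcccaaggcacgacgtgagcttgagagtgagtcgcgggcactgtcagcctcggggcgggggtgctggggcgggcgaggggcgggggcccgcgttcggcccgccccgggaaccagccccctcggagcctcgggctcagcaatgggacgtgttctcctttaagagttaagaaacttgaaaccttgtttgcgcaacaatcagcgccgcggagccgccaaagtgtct
Tgfb2: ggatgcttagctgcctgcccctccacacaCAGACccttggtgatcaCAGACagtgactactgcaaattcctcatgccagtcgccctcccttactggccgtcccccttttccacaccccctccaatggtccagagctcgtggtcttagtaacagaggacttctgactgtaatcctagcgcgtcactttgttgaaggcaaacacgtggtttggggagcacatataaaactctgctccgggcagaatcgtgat
Gdf10: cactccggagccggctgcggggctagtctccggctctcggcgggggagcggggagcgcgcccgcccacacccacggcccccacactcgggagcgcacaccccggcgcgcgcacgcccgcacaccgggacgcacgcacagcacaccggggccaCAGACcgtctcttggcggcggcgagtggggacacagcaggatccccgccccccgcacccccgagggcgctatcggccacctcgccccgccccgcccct

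The box CAGAC, counted on both strands, stood 2 times in the Ltbp2 window, 2 times in that of Tgfb2, 1 time in that of Gdf10 and 0 times in those of Tgfb1 and Smad6. Ltbp2, the gene among them that was 2.08-fold higher, and Gdf10, which was 2.48-fold lower, thus both have it. Over all pathway genes 19 of 37 windows (51.4%) held it, beside 42.2% of 32851 windows of all genes in the table. The element GGCGCC, which BMP-activated Smads can bind and which reads the same on both strands, was in 6 of 37 windows (16.2%), beside 9.59% of all. None of the 5 windows shown holds it. The 8-base palindrome GTCTAGAC, made of GTCT and its reverse complement AGAC, was in 0 of 37 windows and in 0.167% of all. No motif contains another, and these matches are letters in a window, not measured binding.

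On its brightest probe set none of the 10 receptor genes above the floor reached 1.5-fold, and their differences ran from -0.57 to 0.17. Of all genes 8.20% passed this ratio upward and 8.52% downward. A dimmer probe set of Acvr2a and a dimmer one of Bmpr1a did pass it, each higher by a difference of 0.64. On the brightest probe sets 3 were higher and 7 lower on the HFD32 array. With the median over each receptor's probe sets, some of them under background, 5 were higher, 4 lower and 1 at 0, and the median of the type I receptors went from -0.04 to 0.22, so that no common direction can be given. Among the type I receptors, Tgfbr1, the type I receptor of TGF beta, had 9.30 on the CE-2 array and 9.47 on the HFD32 array. Its dim probe sets had 5.15 and 5.37, and 4.82, which is under background, and 5.29. Acvr1b, the type I receptor of activin known as ALK4, had 9.12 and 9.23, and its second probe set lay under background on both arrays. Both of these genes had a positive difference within the SD between probe sets on their brightest probe set. Acvr1c, which encodes ALK7, had 10.11 and 9.68 (1438309_at), a difference of -0.43 and 1.34-fold lower. Its other probe sets had 8.69 and 8.22, and 7.71 and 7.42, so that all 3 were lower on the HFD32 array, by differences from -0.48 to -0.29. Acvr1, also called ALK2, a type I receptor of BMPs, had 9.10 and 8.61, a difference of -0.49, and -0.19 on its second probe set above the floor. A further probe set of Acvr1 lay under background on both arrays.

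Bmpr1a, the main type I BMP receptor of fat precursors, depended on the probe set. Its brightest one had 9.85 and 9.81, a difference of -0.04. The other 4 above the floor had 8.58 and 8.99, 8.38 and 9.01, 8.28 and 8.74, and 5.33 and 5.70, all higher on the HFD32 array, with differences from 0.37 to 0.64. The median over all 6 probe sets of Bmpr1a was 0.39. Bmpr1b, a related receptor best known from cartilage, had 4.71 and 4.26, both under background, and no ratio is given.

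Among the type II receptors the probe sets also disagreed. Tgfbr2, the type II receptor of TGF beta, had 10.59 and 10.54, and 7.73 and 7.81 on its second probe set, so that both differences were within 0.10 of 0. Bmpr2, the type II receptor of BMPs, had 10.63 and 10.30, a difference of -0.33, against 5.86 and 6.36 on a dimmer probe set, a difference of 0.50. Acvr2a, an activin and BMP receptor, had 8.06 and 7.89, a difference of -0.17, against 6.51 and 7.15 on its second probe set, a difference of 0.64. No direction can be given for Bmpr2 and Acvr2a from these values. Acvr2b, the close relative of Acvr2a, had 5.66 and 5.75. Its other probe sets had 5.11 and, under background, 4.54, and values under background on both arrays. Tgfbr3, the coreceptor betaglycan that presents TGF beta and also binds inhibin, had 11.39 and 10.82, a difference of -0.57 and 1.49-fold lower. Its second probe set had 7.52 and 7.28, also lower, by a difference of -0.24.

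The Smads went both ways, with a median difference of 0.04 over 7 genes. Smad6, the inhibitory Smad that acts mainly on BMP signalling, was the only one past 1.5-fold. It had 7.95 on the CE-2 array and 8.59 on the HFD32 array (1422771_at), a difference of 0.65 and 1.57-fold higher, on its single probe set. Smad7, the inhibitory Smad that acts on both branches, had 6.84 and 6.88, a difference of 0.04, and a probe set below the floor had 5.53 and 5.20. The BMP Smads were lower or mixed. Smad1 had 9.16 and 8.74, a difference of -0.43, and all 3 of its probe sets were lower, from -0.43 to -0.12. Smad5 had 8.25 and 7.95, a difference of -0.31, but 6.46 and 6.53, and 5.75 and 5.99, on its other probe sets.

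The Smads of TGF beta and activin differed by less than the SD between probe sets. Smad2 had 8.61 and 8.81, and 6.79 and 6.73 on its second probe set, with opposite signs. Smad3 had 8.11 and 8.24, a difference of 0.12, and 5.43 and 5.37 on a dim probe set, while a further one lay under background on both arrays. Smad4, the common partner, had 10.01 and 9.66, 9.88 and 9.40, and 9.21 and 9.03. All 3 probe sets of Smad4 were thus lower on the HFD32 array, by differences from -0.48 to -0.17.

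Of the 4 members above the floor that are secreted antagonists, Chrdl1 had the largest difference and the most probe sets. Chrdl1 encodes chordin-like 1, which binds BMPs and keeps them from their receptors. Its brightest probe set (1434201_at) had 9.89 on the CE-2 array and 8.98 on the HFD32 array, a difference of -0.91 and 1.87-fold lower, and 3.87% of all genes lay lower still. The other 3 had 9.39 and 8.73, 9.44 and 8.16, and 7.82 and 6.83. The differences of the 4 probe sets ran from -1.27 to -0.66, a gap of 0.61. Fst, follistatin, the main trap of activins, had 7.88 and 7.35, a difference of -0.53 and 1.44-fold lower, and 7.03 and 6.72 on its second probe set.

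The follistatin relatives differed in the other direction. Fstl3, which also binds activins and myostatin, had 7.23 and 7.56, a difference of 0.34 on a single probe set. Fstl1, a secreted glycoprotein of mesenchymal cells, had 11.41 and 11.71, and 10.70 and 10.95, both higher by differences of 0.30 and 0.25. Grem1, gremlin, an antagonist of BMPs in visceral fat, had 4.34 and 4.19, under background on both arrays. Nog, noggin, a further BMP antagonist, had 4.71 and 5.26, under background on the CE-2 array and below the floor in the mean.

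Agreement between probe sets was like that of other genes. Several probe sets above the floor were available for 17 pathway genes. Of these, 11 (64.7%) had all differences of 1 sign, beside 65.7% of 5131 genes. The 6 with both signs were Acvr2a, Bmpr1a, Bmpr2, Smad2, Smad5 and Tgfbr2. The SD between their probe sets was 0.23 over the 17 genes, beside 0.27 over all. Of the 7 genes past 1.5-fold, only Chrdl1 had several probe sets above the floor, and the other 6 rest on 1 each.

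Further genes of the pathway, listed by role, were set beside these. Of 86 such genes with a probe set 60 lay above the floor, and 4 (6.67%) were higher by 2-fold or more and 4 (6.67%) were lower by as much, beside 3.28% and 3.29% of all genes. Among the 4 higher is Nedd4l, whose probe sets above the floor had differences from -0.54 to 1.54. In the list counts that follow, 49.9% of all genes were higher and 49.3% lower, and no list was tested. Of 12 TGF beta response genes 9 were higher and 3 lower on the brightest probe sets, with a median difference of 0.30. Fn1, fibronectin, is counted as higher (0.29), but its other probe set had -0.72. Timp1, an inhibitor of matrix proteases, had 6.33 and 8.68, 5.11-fold higher. Postn, the matrix protein periostin, had 10.31 and 11.60, 2.45-fold higher, and Cdkn2b, a cell cycle inhibitor, had 7.53 and 8.61, 2.11-fold higher. Tagln, a protein of contractile fibres, had 11.17 and 9.46, 3.28-fold lower. Tagln and Acta2 (a difference of -0.55) also stand in the smooth muscle list, which was lower in 6 of 6 genes, and Col1a1 (0.65) also in the fibroblast list. The other probe set of Acta2 above the floor had a difference of -1.93. Fn1, Acta2 and Col1a1, all short of 2-fold on their brightest probe sets, are named for these reasons.

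Of 7 BMP response genes 5 were lower, 1 was higher by less than 0.01 and 1 had the same value on both arrays, with a median difference of -0.18. Id4, an inhibitor of basic helix-loop-helix factors, had 7.30 and 5.50, 3.50-fold lower, and its 3 probe sets had differences from -1.81 to -0.75. Its relatives, named beside it after their values were seen, were also compared. Id1, with 8.66 and 7.71, and Id2, with 9.32 and 8.66, were 1.93-fold and 1.57-fold lower, while Id3 had 10.11 and 10.11. These 3 Id genes past 1.5-fold are 42.9% of a list of 7, beside 8.52% of all genes, and the list is too short for this to describe more than its own members.

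**Figure D3:**
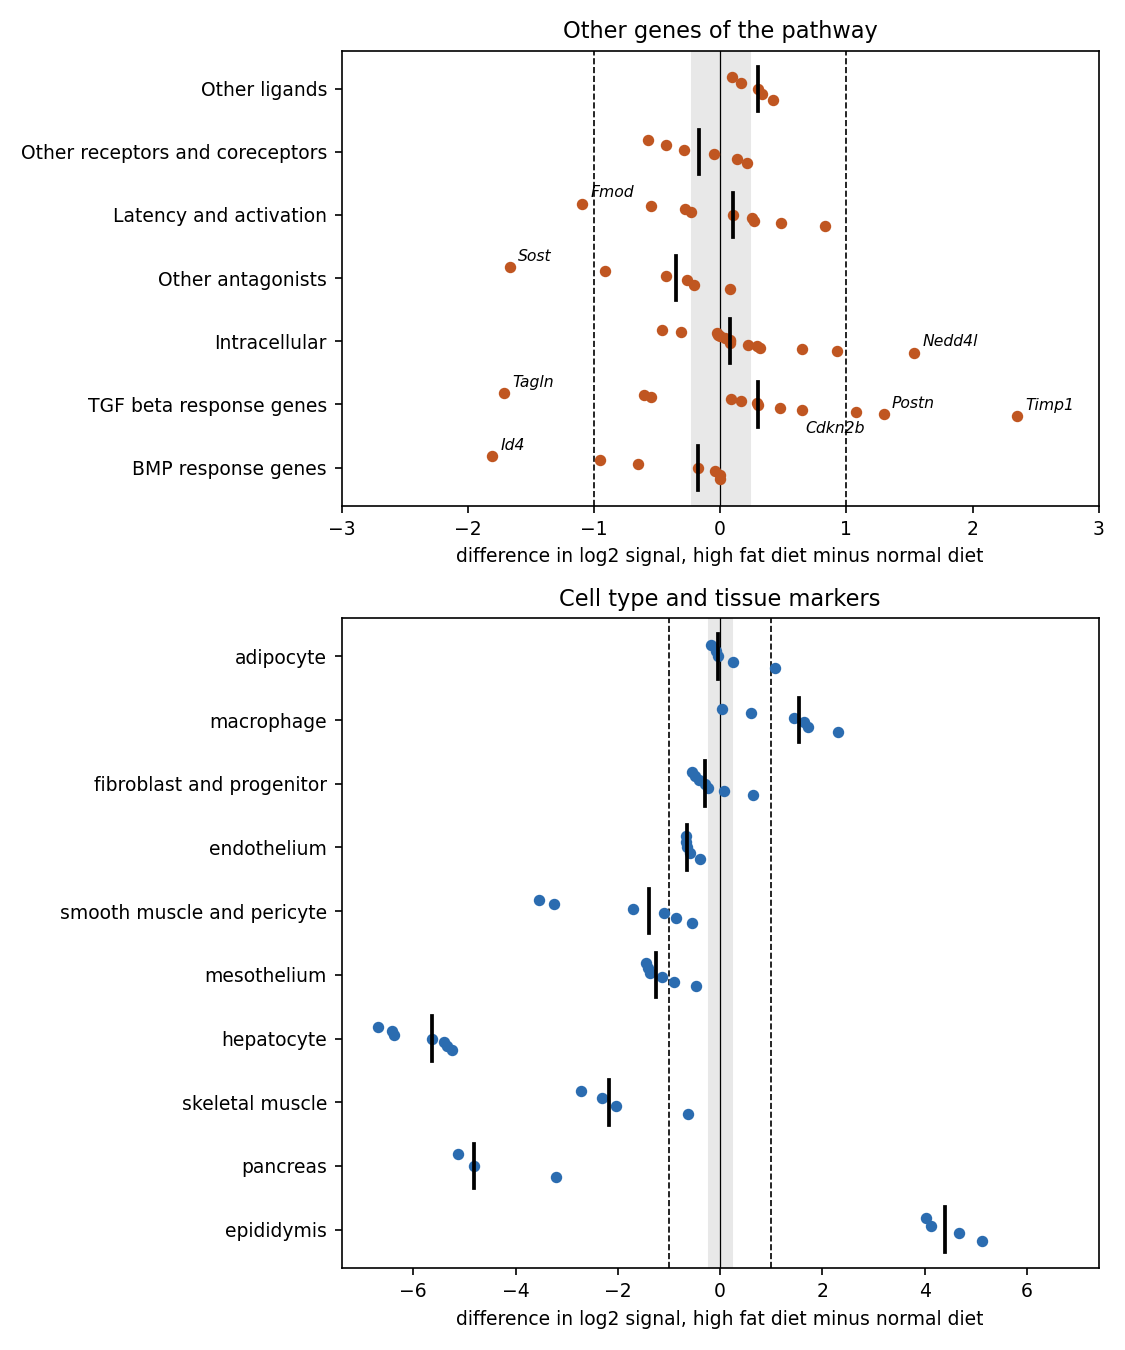
Difference in log2 signal, high fat diet minus normal diet, of the other pathway genes (upper panel) and of the cell type and tissue markers (lower panel, wider scale) above the floor. Each point is a gene, black bars are list medians, the grey band is the middle 50% of all genes and dashed lines mark 2-fold. Named genes in the upper panel are the 8 past 2-fold, from Id4 at -1.81 to Timp1 at 2.35, and the hepatocyte and epididymis lists lie farthest out in the lower panel, with medians of -5.64 and 4.39.

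Among the intracellular regulators, 10 of 15 were higher and 4 lower on the brightest probe sets, with a median difference of 0.08. Smurf2, Skil, Strap, Fkbp1a and Ppm1a among the higher ones, and Ski and Trim33 among the lower, differed by less than the SD between probe sets. Strap, Ppm1a, Smurf1 and Ski also had probe sets of both signs above the floor. Nedd4l, a ubiquitin ligase that can mark activated Smads for removal, had 7.99 and 9.53, 2.90-fold higher, but its 3 probe sets above the floor had differences from -0.54 to 1.54, and no direction can be given. Tgif1, a repressor of Smad target genes, was 1.90-fold higher (6.16 and 7.09), and Pmepa1, a membrane protein that holds receptor Smads back, was 1.57-fold higher (10.06 and 10.72). Both were chosen here after their values were seen. The 3 probe sets of Pmepa1 had differences from 0.65 to 1.60.

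Of 6 further antagonists 5 were lower. Sost, sclerostin, had 6.58 on the CE-2 array and 4.91 on the HFD32 array, which is under background, and was thus at least 3.09-fold lower. Bmper, a further binder of BMPs chosen here after its value was seen, had 9.34 and 8.42, 1.88-fold lower. In the latency and activation list 5 of 9 were higher and 4 lower. Fmod, fibromodulin, a small matrix proteoglycan that binds TGF beta, had 9.93 and 8.83, 2.13-fold lower, and its 6 probe sets had differences from -1.09 to -0.65. Nrros, which holds latent TGF beta on macrophages, was 1.78-fold higher (8.02 and 8.86, chosen after its value was seen), beside the macrophage markers with a median of 1.55.

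The 6 further receptors and coreceptors had differences from -0.57 to 0.21 and none reached 1.5-fold. Of 17 further ligands with a probe set, 12 lay below the floor. The 5 above it, with 1 probe set each, were higher by 0.10 to 0.42 on the log2 scale, and none reached 1.5-fold. Bmp10 (5.43 and 5.60) lay under the floor on the CE-2 array, so it was counted only through the array where it is higher. The differences of Bmp10 and Gdf2, 0.17 and 0.10, are within the SD between probe sets, and no common rise can be read from these ligands. Gdf3, a ligand of ALK7 made by macrophages of fat, lay below the floor in the mean and is named for its value. It had 4.04 on the CE-2 array, under background, and 5.66 on the HFD32 array, at least 1.67-fold higher, beside 6 of 6 macrophage markers higher.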

How the data were processed

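RNA of adipose tissue was labelled with biotin and hybridised to 1 Affymetrix array per diet. The deposited values are log2 signals, summarised per probe set by the authors with RMA, per the submitters' processing notes, which name no version. RMA subtracts background and equalises the arrays. That the scale is log2 follows from the range of 2.04 to 14.28. RMA compresses differences of dim and bright probe sets and removes any change in total RNA. The number of arrays limits the precision.

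Of 45101 probe sets, 64 controls were left out. Probe sets were named from the platform annotation, and all 91 of the pathway genes had the same symbol by Entrez ID in RefSeq GRCm38.p6. The probe set brightest over both arrays stood for its gene. Thresholds were a floor of 5.44 and ratios of 1.5 and 2. Where 1 array lay under background, the ratio was computed against it and written "at least". Both values were given for genes past 1.5-fold, for genes whose probe sets disagreed and for a few preset ones, and the further pathway genes named by rule were those past 2-fold. Others among them are named outside the rule, after their values were seen. The member rule uses names alone, but members, lists and rules were chosen with earlier results of these data known, and the 3 promoter motifs after the values were seen. Counting was tested on simulated data with large shifts and little noise, which says nothing about genes near 1.5-fold. Python 3.11.15, pandas 2.3.3 and matplotlib 3.10.9 were used.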

Additional observations from a re-analysis of the deposited data

How the results depend on the processing

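Of 6 alternatives, centring on the median difference and raising signals to background changed no value here, since that median is 0 and none of the 35 genes lay under background. The other 4 were the median difference over a gene's probe sets, only probe sets without _s_, _x_ or _a_ in their ID, no floor, and a floor at the 75th percentile. Under these 43 of 48 counts and medians stayed within 1.5 times the count or within the SD between probe sets. The 5 that moved did so with the higher floor, which keeps 24 pathway genes. Ltbp2, Tgfb2 and Tgfb3 lie below this floor and are not counted with it. There 0 genes reached 2-fold in the higher direction and 2 reached 1.5-fold in the lower direction, and the medians were 0.52 for activin ligands (1 gene), -1.31 for BMP and GDF ligands (1 gene) and -0.53 for secreted antagonists (3 genes). A change of floor only chooses genes and cannot change a single difference. A gene with 1 probe set also keeps its difference in each setting that counts it. Of 128 single differences, many of them thus fixed beforehand, 6 moved, all with the median over probe sets. They were Tgfb1 (0.51, no longer past 1.5-fold), Acvr1 (-0.19), Acvr2a (0.23), Bmpr1a (0.39), Bmpr2 (0) and Smad5 (0.07). No difference past 1.5-fold changed sign, but those of Gdf10, Tgfb3, Ltbp2 and Smad6, with 1 probe set each, could not have done so. Depth does not apply to arrays, and genes near background are limited by their signal. No paired analysis was possible because each diet has 1 array.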
